A study of Arabidopsis thaliana with 124 samples.

Results

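Regions of the Arabidopsis thaliana genome at which, in seedlings treated with abscisic acid (ABA), a ChIP-seq peak was found for the bZIP protein GBF3 and for none of the other 20 transcription factors in the series are described here. Peaks from 42 lists, 1 for each of 21 factors under ABA and under mock treatment, were merged wherever they overlapped by at least 1 bp, which gave 21939 regions. A region was counted as bound by GBF3 alone when the ABA list of GBF3 touched it and no other ABA list did. This held for 2186 regions, 16.2% of the 13495 regions touched by the ABA list of GBF3. The other 11309 regions of that list were touched by at least 1 further factor under ABA and served for comparison.

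All seedlings were of the Col-0 accession, whole and 3 days old, grown in the dark, and each tagged line carried 1 factor joined to the fluorescent protein YPet by recombineering, so that an antibody against GFP could precipitate it. The groups used here are seedlings of the GBF3 line given 10 µM ABA for 4 h (3 libraries) and of the same line given ethanol alone for the same time (mock, 3 libraries), with the like pairs of groups for the other 20 factors. Those groups also had 3 libraries each, except for ANAC102 and ZAT6, which had 2 per group. Untagged Col-0 chromatin taken through the same precipitation gave 2 control libraries, both labelled as ABA-treated. The replicates of a group were pooled into 1 list before deposit, so no value below has a replicate error, and 95% intervals cover the counting of regions only. Read depth is unknown. The sources used here do not say how many independent insertions stand behind the tagged line.

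GBF3 belongs to the G-box binding factors, plant bZIP proteins that bind DNA as dimers through a basic region next to a leucine zipper. The G-box, their usual site, is common in promoters of light-regulated and ABA-regulated genes, and the ABF proteins, which carry much of the transcriptional response to ABA, recognise a closely related element. GBF2, also in the series, is of the same subfamily as GBF3, and both can form dimers with other G-box binding factors.

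The regions bound by GBF3 alone lay mostly within the bodies of genes. The summit (the position of highest signal) of the strongest GBF3 peak fell inside a protein-coding gene in 1361 of the 2186 regions, 62.3% (95% Wilson interval 60.2 to 64.3%), against 4109 of the 11309 regions shared with other factors, 36.3% (35.5 to 37.2%). Over all GBF3 regions under ABA the share was 40.5%. The difference was 25.9 percentage points (95% Newcombe interval 23.7 to 28.1, counting error only). Protein-coding genes cover 54.1% of the chromosomes up to their last gene, so the share was above that value in the regions bound by GBF3 alone and below it in the shared regions. Close to genes the order of both kinds of region was reversed. Summits outside genes but within 1000 bp of one made up 18.9% (17.4 to 20.6%) of the regions bound by GBF3 alone and 49.5% (48.6 to 50.4%) of the shared ones. Summits more than 1000 and up to 2000 bp away made up 6.36% of the regions bound by GBF3 alone and 8.08% of the shared ones. Those more than 2000 bp from any protein-coding gene made up 12.4% (11.1 to 13.9%) of the regions bound by GBF3 alone and 6.07% (5.64 to 6.52%) of the shared ones.

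**Figure D1:**
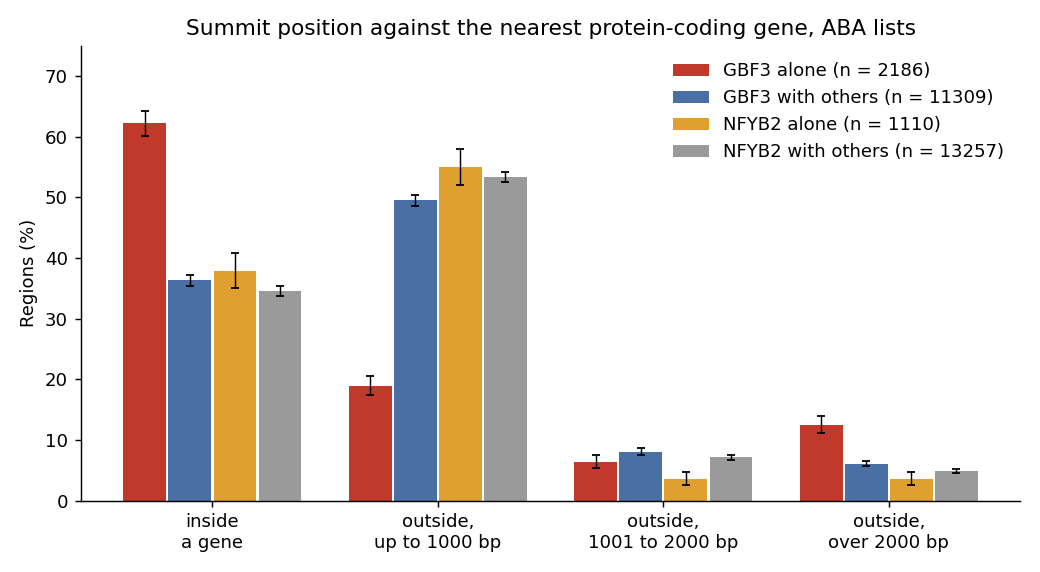
Share of regions (%, y axis) by the position of the factor's summit against the nearest protein-coding gene (x axis), for regions bound under ABA by GBF3 alone, by GBF3 with others, by NFYB2 alone and by NFYB2 with others. Bars are shares and whiskers are 95% Wilson intervals. The bar of GBF3 alone stands at 62.3% inside genes, above the other 3 classes, which lie between 34.6% and 37.9%.

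Inside genes, the summits of the regions bound by GBF3 alone lay further from the gene ends than those of the shared regions. The nearer end of the gene was a median of 804 bp away (interquartile range 426 to 1325 bp), against 182 bp (62 to 502 bp) in the shared regions. Of the 1361 summits, 408 (29.98%) lay within 500 bp of a gene end, against 74.9% of the shared summits inside genes. The middle 50% of the gene's length held 772 summits, 56.7%, against 24.8% of the shared ones. An even spread along the gene would put 50% there, so the summits with GBF3 alone were closer to an even spread than the shared ones. The outermost 10% of the gene's length at either end together held 12.6% of the summits in regions bound by GBF3 alone and 53.2% of those in shared regions. Host genes were longer, with a median of 3058 bp, against 2465 bp for hosts of shared summits and 2078 bp for all protein-coding genes. A longer gene covers more positions and can more easily hold a summit, and no comparison weighted by length was made. The part of gene length in the distances to the gene ends was not tested. Strand and exons were not used here, so the start and the end of a gene are not told apart, nor exons and introns.

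**Figure D2:**
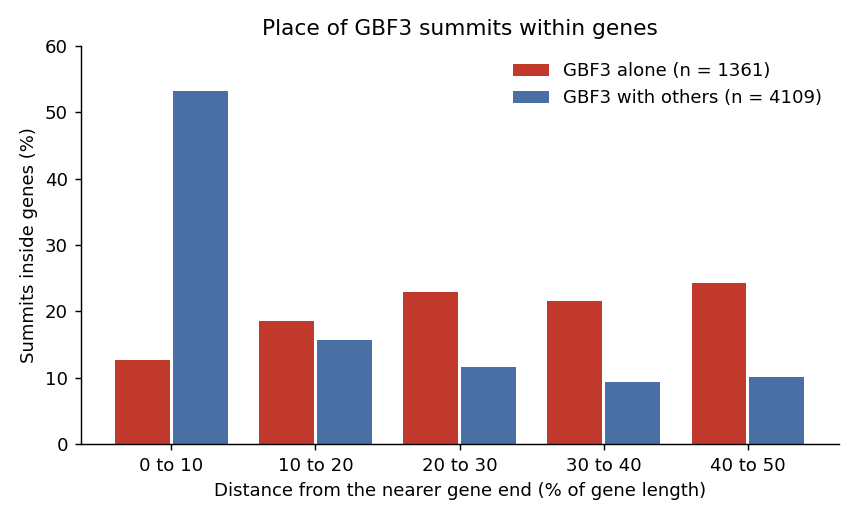
Place of GBF3 summits within their host gene, as the distance from the nearer gene end in percent of the gene's length (x axis) and the share of summits inside genes (%, y axis). Red bars are regions bound by GBF3 alone and blue bars are regions bound by GBF3 with others. The blue bars are highest next to a gene end, at 53.2%, and the red bars are lowest there, at 12.6%.

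The higher share inside genes was seen at every peak strength. Within the GBF3 list the authors' −log10 p of each peak ranks its strength. In regions bound by GBF3 alone the share of summits inside genes was 55.8% (49.5 to 62.0%) for peaks up to 20, 62.2% (57.0 to 67.1%) between 25 and 30, and 68.8% (62.4 to 74.6%) above 60. In shared regions the same classes had 36.8%, 30.7% and 37.5%, and no class of shared regions was above 38.6%. The intervals of the 2 kinds of region did not overlap in any of the 6 strength classes. These intervals cover the counting of regions only and hold no replicate error, so this is a description and not a test. Among regions whose peak was 300 to 500 bp wide the difference in the share inside genes was 22.2 points (18.6 to 25.6), with 1368 and 1583 regions. This choice of widths was made after the data were seen.

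With other factors in the region the share inside genes was lower than with GBF3 alone, and lowest with the most factors. It was 44.7% (41.1 to 48.3%) in the 723 regions with exactly 1 other factor, 42.5% with 2 to 4, 37.6% with 5 to 9, 36.1% with 10 to 14, and 31.9% (30.5 to 33.4%) in the 3758 regions with 15 to 20. The lone partner was most often GBF2, in 343 of the 723 regions (47.4%), and next NFYB2, in 203 (28.1%). In the regions that GBF3 shared with GBF2 only, 51.3% of the summits lay inside a gene (46.0 to 56.6%), against 35.5% (29.2 to 42.3%) in those it shared with NFYB2 only. These 2 sets also differed in strength. The GBF3 peaks had a median −log10 p of 79.2 in the regions shared with GBF2 only and 27.7 in those shared with NFYB2 only.

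The genes with a region bound by GBF3 alone were also compared for the other factors placed at them. With each summit assigned to its closest protein-coding gene up to 2000 bp away, 1814 of 27444 genes, 6.61%, received at least 1 region bound by GBF3 alone. Of these 1814 genes, 1123 (61.9%) also had the ABA summit of another factor elsewhere, against 67.8% of all protein-coding genes, with a median of 2 other factors against 3. A GBF3 region shared with others was placed at 559 of them (30.8%), against 34.9% of all genes. For 1300 genes, 4.74%, the summit lay inside. Of the 1300, 896 (68.9%) had another factor elsewhere, with a median of 3 other factors, and 436 (33.5%) had a shared GBF3 region, so these genes lay closer to the values of all genes. Among the 9566 genes with a shared GBF3 region the median number of other factors was 11. A shared region holds another factor's ABA peak by the rule, so a higher number was built into this last comparison.

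Most genes had a single region bound by GBF3 alone. There were 84 genes with 2 such regions and 8 with 3. sks13, of the SKU5-like family of cupredoxin-domain proteins, had 3 on chromosome 3. Their −log10 p under ABA was 32.1 (4354253 to 4354981, outside the gene), 66.7 (4355110 to 4355988) and 25.6 (4356144 to 4356456). The first had the higher value under mock, 51.3, the second had 54.8 there, and the third had no mock peak. HDG10, a homeodomain-leucine zipper gene of class IV, had 3 on chromosome 1 with a −log10 p of 39.5, 50.3 and 22.2, all also present under mock. The helicase gene NIH had 3 inside it, at 21.3, 42.3 and 45.1. AT1G24360 and AT1G18160 had 3 each, and no ABA summit of another factor was placed at either gene.

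The strongest regions bound by GBF3 alone lay in genes of many kinds. The first was inside DOF4.7, a Dof-type transcription factor gene (chromosome 4, 17858165 to 17859162, TAIR10). Its peak had a −log10 p of 115 and a fold enrichment of 4.30 under ABA, and 86.6 and 3.70 under mock. WRKY47, of the WRKY transcription factors, followed among the genes with 103 and 83.3 under ABA and mock on the −log10 p scale (chromosome 4, 747370 to 747963). DPA4, a B3-domain repressor gene of leaf development, had 100.4 and 67.2 (chromosome 5, 1893457 to 1894010). Both genes also had many other factors placed at them, inside the gene or up to 2000 bp away, 19 at WRKY47 and 14 at DPA4. GBF3 was thus alone at the region and not at the gene.

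The histone acetyltransferase gene HAM2 had a −log10 p of 98.0 under ABA and 88.5 under mock (chromosome 5, 3023635 to 3024125). GCN2, the kinase of the translation factor eIF2, had 97.3 and 48.0 (chromosome 3, 21953490 to 21954273). PEL1, of the Pelota family of ribosome rescue factors, had 97.2 and 67.2 (chromosome 4, 13806437 to 13806967). SOB3, an AT-hook protein gene that restrains hypocotyl growth, had 93.1 and 68.8 (chromosome 1, 28705494 to 28706702). In all of these the summit lay inside the gene. All 15 of the strongest regions had a GBF3 peak under mock as well, with the lower −log10 p there.

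QRT2, TET15 and CRU3 also held the summit inside the gene. The polygalacturonase gene QRT2, which acts in the separation of pollen grains, had a −log10 p of 92.2 under ABA and 67.9 under mock (chromosome 3, 2542791 to 2543372). TET15, a tetraspanin gene, had 91.6 and 69.6, and CRU3, which encodes the seed storage protein cruciferin, had 91.3 and 70.6 (chromosome 4, 14088696 to 14089365). AT2G21030 held 1 of the 15 inside it, and AT3G44555 lay 1021 bp from another. The remaining 3 had no protein-coding gene within 2000 bp. The strongest of those, second in the whole set, had a −log10 p of 111 under ABA and 49.5 under mock (chromosome 4, 4253694 to 4254160) and lay 11830 bp from the nearest protein-coding gene.

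A smaller set lay far from genes. The 272 regions more than 2000 bp from any protein-coding gene often lay where genes are sparse. In 134 of them (49.3%) fewer than 10 protein-coding genes had their middle within a window of 100000 bp around the summit, against 61 of the 686 far shared regions (8.89%). For all regions the shares were 8.69% for GBF3 alone and 1.66% for GBF3 with others, and 2.26% of protein-coding genes themselves lay in such surroundings. Annotated pseudogenes, a class of the gene table that here includes transcribed pseudogenes, held 61 of the 825 summits outside protein-coding genes (7.39%, interval 5.80 to 9.38%), against 48 of 7200 in shared regions (0.667%, 0.503 to 0.883%). Pseudogenes can resemble other genes closely, and the sources used here do not say how reads that fit several places were treated. By chromosome, the regions bound by GBF3 alone numbered 17.4 to 20.1 per Mb, lowest on chromosome 2 and highest on chromosome 4, and their share inside genes ranged from 55.8% on chromosome 2 to 65.7% on chromosome 5.

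Many of the regions bound by GBF3 alone were GBF3 regions under mock too. A GBF3 mock peak touched 1090 of the 2186, 49.9% (95% Wilson interval 47.8 to 52.0%), against 10554 of the 11309 shared regions, 93.3% (92.8 to 93.8%), and 86.3% of all GBF3 regions under ABA. The difference was −43.5 points (95% Newcombe interval −45.6 to −41.3). The ABA list of GBF3 starts at a −log10 p of 17.98 and the mock list at 16, so the mock list was the less strict. With the mock list held to the ABA minimum the share was 43.2%. With GBF3 ABA peaks of a −log10 p of at least 32 and the other lists as deposited, 980 regions were bound by GBF3 alone, their mock share was 82.1%, and the difference was −16.7 points. Of the regions bound by GBF3 alone, 1023 were touched by GBF3 and no other factor under mock as well, and 1088 (49.8%) were in no mock list at all.

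Presence under mock followed the strength of the ABA peak. It was 15.4% (11.4 to 20.5%) among regions bound by GBF3 alone with a −log10 p up to 20, 30.4% (25.8 to 35.4%) between 25 and 30, 57.2% between 30 and 40, 91.3% between 40 and 60, and complete for the 218 regions above 60. Shared regions had 41.9%, 80.9%, 91.0% and 97.9% in the first 4 of these classes. At a like strength under ABA, the regions bound by GBF3 alone were therefore less often in the mock list up to 60. Shared regions had wider peaks at each strength, for example a median of 617 bp against 345 bp for GBF3 alone between 25 and 30. Among regions with peaks of 300 to 500 bp the mock share was 51.6% for GBF3 alone, and the difference to shared regions was −29.2 points (−32.4 to −25.9), smaller than over all widths.

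**Figure D3:**
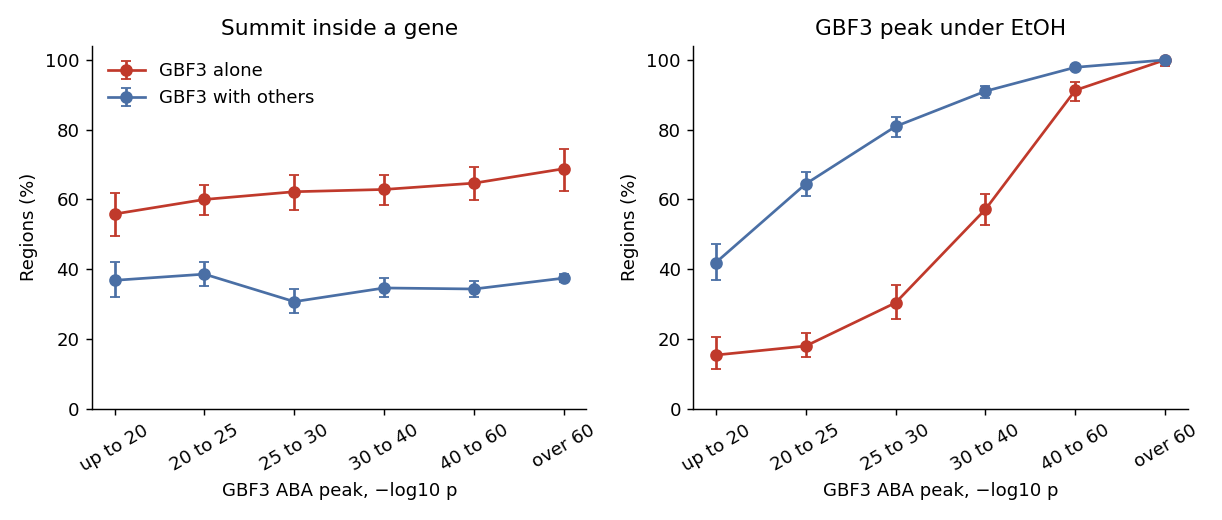
Share of regions with the summit inside a gene (left, %) and with a GBF3 peak under EtOH, the mock treatment (right, %), by the −log10 p of the GBF3 ABA peak (x axis). Red points are regions bound by GBF3 alone, blue points are GBF3 with others, and whiskers are 95% Wilson intervals. The red points lie above the blue ones at every strength on the left, and on the right they climb from 15.4% to 100%.

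Where GBF3 was found in both treatments its ABA peak was mostly the stronger. Of the 1090 regions, 1011 had the higher −log10 p and 1015 the higher fold enrichment under ABA, and the median ratio of fold enrichment under ABA to that under mock was 1.19. In the 10554 shared regions with both peaks the counts were 6643 and 8049 and the median ratio was 1.04. The regions were chosen by their ABA peak and the values come from separate lists, so the ratio is a description.

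**Figure D4:**
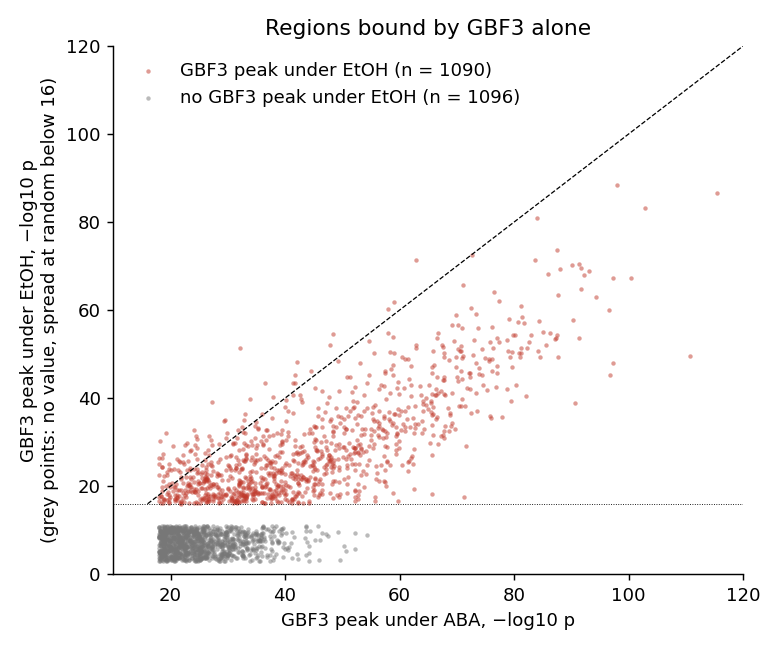
The authors' −log10 p of the GBF3 peak under ABA (x axis) and under EtOH, the mock treatment (y axis), for the regions bound by GBF3 alone. Red points are the 1090 regions with both peaks, the dashed line marks equal values, and the 1096 regions without a mock peak are grey and spread at random below the minimum of 16 with no value of their own. Most red points lie below the line, and the highest grey point has an ABA value of 54.2.

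The regions without a GBF3 mock peak were the weaker ones, with a median −log10 p of 24.1 under ABA, against 42.02 for those with one, and a highest value of 54.2. Their summits lay inside genes in 66.2% (63.4 to 69.0%), against 58.3% (55.3 to 61.2%) for those with a mock peak. The strongest lay on chromosome 2 (4526587 to 4526959), 16395 bp from the nearest protein-coding gene, with a fold enrichment of 3.12. The next had a −log10 p of 52.2 and lay 243 bp from AT3G32410. The third, inside AT5G51490, also had 52.2. The fifth, with 50.3, lay inside UBA1, a gene for a ubiquitin-activating enzyme (chromosome 2, 12852816 to 12853177). No other factor was placed under ABA at AT5G51490 or AT3G32410, and 6 were placed elsewhere at UBA1.

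Few of the regions bound by GBF3 alone under ABA were touched by another factor under mock. It was 75 of 2186, 3.43%. Over all regions of the series, 76.2% were touched by at least 1 mock list of a factor other than GBF3. The rule leaves out every region with an ABA peak of another factor, and the series holds many regions found through those factors. A low share was therefore built into this comparison, which is given as a description. GBF2 accounted for 41 of them and HB5 for 17, and NFYB2 and RD26 touched 6 each. The mock lists of 10 factors, among them ABF1, ABF3 and ABF4, touched none. Most of the 75 also had a GBF3 mock peak, and 8 did not. The region inside AT1G27090 had mock peaks of GBF2, GBF3, HAT22 and HB5 and a GBF3 −log10 p of 55.6 under ABA and 38.4 under mock (chromosome 1, 9404116 to 9405020). The region inside the haemoglobin gene HB2, which is unrelated to the homeodomain factors, had mock peaks of FBH3, GBF2, GBF3 and HB5. There the GBF3 value was 18.0 under ABA and 26.5 under mock, so it was at the edge of the ABA list. ALS3, an aluminium tolerance gene, had a mock peak of GBF2 beside that of GBF3, with a GBF3 value of 90.1 under ABA and 70.3 under mock.

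Seen from the mock side, 1589 regions were touched by GBF3 and no other factor in the mock lists. Under ABA 1023 of these (64.4%) were still bound by GBF3 alone, 434 (27.3%) were bound by GBF3 with others, 50 by others without GBF3, and 82 (5.16%) were in no ABA list. Of the 434 regions with added factors, 188 had NFYB2, 151 had GBF2, 106 had ZAT6 and 100 had HB7. ABF3, ABF1 and ABF4 were among the added factors at 75, 71 and 61. The ABA lists differ in length, with 18096 peaks for NFYB2, 13565 for HB7, 11512 for ZAT6, 10724 for GBF2 and 8512 for ABF1. Some were much shorter under mock, such as HB7 with 3645 peaks and ZAT6 with 5146. The part of list length in these counts was not tested.

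The strength of the GBF3 ABA peaks comes from the lists by which the regions were chosen, so it is given as a description. The strongest GBF3 ABA peak of a region had a median −log10 p of 30.01 (range 18.0 to 115) in regions bound by GBF3 alone, against 71.1 (18.0 to 142) in shared regions. The median fold enrichment was 2.39 in regions bound by GBF3 alone and 3.41 in shared regions. None of the 1000 strongest peaks of the list belonged to a region bound by GBF3 alone. Of the 2186 regions bound by GBF3 alone, 26 (1.19%) reached the 5000 strongest. Among the 11309 shared regions, 8.51% reached the 1000 strongest and 39.9% the 5000 strongest. The peaks were narrow, with a median width of 367 bp against 887 bp in shared regions, and nearly all of the regions, 2180 of 2186, held a single GBF3 ABA peak.

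The edge of the rule was drawn by 1 bp of overlap. Another factor's ABA peak lay a median of 1311 bp away from a region bound by GBF3 alone (interquartile range 523 to 2822 bp), and within 500 bp for 519 of them (23.7%). The nearest was most often a peak of NFYB2 (294 regions), which has the longest ABA list, and RD26 (216). Just inside the rule, the region nearest to AT1G05660 (chromosome 1, 1696524 to 1697026) was 1 bp from a HAT22 peak and had a −log10 p of 22.4. Those inside AT3G04190 and AT1G03620 were 2 and 3 bp from an NFYC2 peak, with 31.2 and 24.3. The region inside IDD11, a zinc finger gene, was 10 bp from a MYB44 peak, with 37.8, and the region inside AT3G11180 was 11 bp from an HB7 peak, with 39.4.

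Just outside the rule, 16 of the 723 regions with 1 other factor held ABA peaks of GBF3 and of that factor that did not overlap and were joined by other peaks. Their GBF3 −log10 p under ABA ranged from 18.1 to 71.7 with a median of 34.1. The 5 named here are the strongest of the 16. The GBF3 −log10 p was 71.7 at AT4G25870 (with NFYB2), 67.7 at AT1G23205 (with ABF3), 63.5 at SHR, the SHORT-ROOT gene of root patterning (with GBF2), 51.3 at the lectin gene JAL23 (with ANAC102) and 48.7 at AT3G13677 (with MYB44). In regions with 1 other factor the overlap between both factors' peaks had a median of 385 bp.

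GBF3 had the most regions of its own under ABA of the 21 factors. NFYB2, whose ABA list is longer (18096 peaks against 16320 for GBF3), had 1110, MYB44 had 297 and HB7 had 214, and the other 17 factors had 3 to 183. GBF2 had 3 regions of its own and 8750 shared ones. The part of list length in these numbers was not tested. For NFYB2 the share of summits inside genes was 37.9% (35.1 to 40.8%) in its own regions and 34.6% in its shared ones, a difference of 3.30 points against the 25.9 of GBF3. Its own regions were in its mock list at 52.1% (49.1 to 55.0%), against 84.7% for its shared ones. Of its own regions 3.51% lay more than 2000 bp from a gene, against 12.4% for GBF3 alone. A high share far from genes was not particular to GBF3. Among the 16 other factors with at least 20 regions of their own it ran from 0% for ABF1 to 16% for ABF3. HB5 (14.6%), MYB3 (13.7%) and ANAC032 (13.3%) were also above GBF3, and the rest of the 16 were below it.

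Over the 16 other factors with at least 20 regions of their own, the share inside genes was 4.00 ± 11.8 points higher in regions bound alone than in shared ones (mean and SD, n = 16 factors), positive for 11 and negative for 5. This did not pass the test (two-sided sign-flip permutation test over factors, p = 0.198, Benjamini-Hochberg adjusted over both such tests p = 0.198). With only the 11 factors that had at least 50 regions of their own the mean was 7.65 points and passed (permutation test, p = 0.00298). The value of GBF3, 25.9 points, was above those of all 16. HSFA6A came next with 22.6 points from 37 regions, and ABF3 was lowest with −26.2 points from 25. The share inside genes itself was 67.6% in the regions bound by HSFA6A alone, above the 62.3% of GBF3 alone. For the rest of the 16 it ran from 4% for ABF3 to 50.9% for RD26. Whether GBF3 differs from the other factors was not tested, because a single factor against 16 allows no p below 0.05.

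The lower share under mock was common to the factors. In regions bound alone a factor's own mock peak was found less often than in its shared regions for all 16, with a mean difference of −23.2 ± 17.5 points (SD, n = 16 factors, two-sided sign-flip permutation test, p = 2e-05 from 100000 resamples, adjusted p = 4e-05). Over all 65536 sign patterns the exact permutation p was 3.05e-05, the smallest that 16 factors allow (adjusted p = 6.1e-05). GBF3, at −43.5 points, was lower than 14 of them, and ABF3 (−66.1 points) and RD26 (−44.7 points) were lower still. The regions bound alone also had the lower median −log10 p for every one of the 16, for example 28.2 against 58.1 for NFYB2. The part of strength in this difference was not tested. A mock peak anywhere in the merged region was counted, so a wider region could more easily hold one. For GBF3 the median region width was 378 bp alone and 1686 bp with others. The mock lists also entered the merging, so a factor's mock peak could join its region to another factor's ABA peak and so remove it from those bound alone. With only the ABA lists merged, the mock share for GBF3 alone was 51.3% and the difference −42.1 points. Such merging was not done for the other factors, nor was the part of region width tested for them. The p-values therefore do not separate strength, width or merging from binding alone. The mock lists of DREB2A and HSFA6A hold 15 and 32 peaks, so their differences could only be small.

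**Figure D5:**
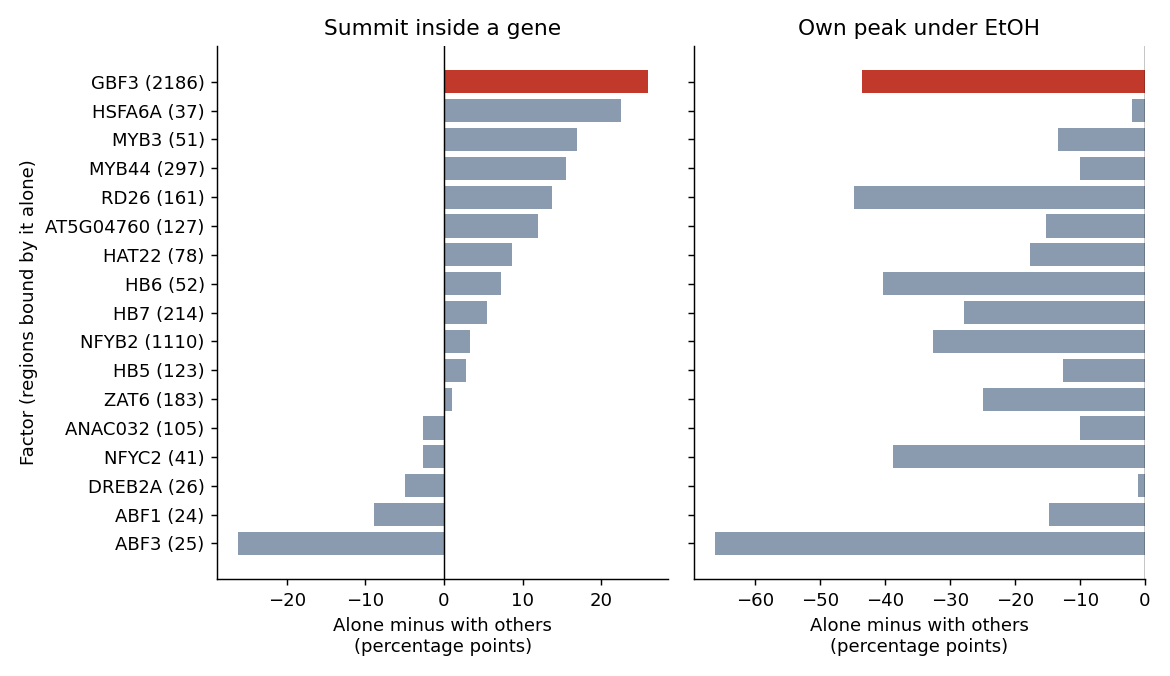
Difference in percentage points (x axes) between a factor's regions bound by it alone and those shared with others, for the summit inside a gene (left) and for an own peak under EtOH, the mock treatment (right). Each bar is 1 factor with at least 20 regions of its own, with their number in brackets, and GBF3 is the red bar at the top. GBF3 has the highest value on the left, 25.9 points, and all bars on the right are below 0.

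Regions bound by GBF3 alone were also counted over lists of genes of ABA signalling and response and of light-regulated genes. Each list is set beside the 6.61% of all protein-coding genes that received such a region, and no test was made of the lists. None of the 18 dehydration response genes, such as RD29A and RAB18, and none of the 9 clade A PP2C phosphatase genes, which switch off ABA signalling, had one, while 13 of the 18 and 5 of the 9 had a GBF3 region shared with other factors. Over all genes the share with a shared GBF3 region was 34.9%. With a share of 6.61% over all genes for GBF3 alone, an absence among 18 or 9 genes says little.

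Of the 14 ABA receptor genes only PYL12 had one, 361 bp outside the gene with a −log10 p of 23.6, absent from the mock list. Of the 10 SnRK2 kinase genes, which pass the ABA signal on, 3 had one, all inside the gene. SNRK2.5 had a −log10 p of 47.1 under ABA and 24.0 under mock (chromosome 5, 25481841 to 25482167). SNRK2-8 had 18.3 and 17.7, and SNRK2.2, 1 of the 3 kinases with the central role in ABA signalling, had 18.4 under ABA alone, so both were close to the lowest value of the ABA list. Among the 10 genes of the ABF, ABI5 and GBF proteins only bZIP68 had one, with 20.7 under ABA and none under mock. Other factors were placed elsewhere at most of these genes, 15 at SNRK2.5, 11 at SNRK2-8, 8 at SNRK2.2 and 11 at bZIP68, but none at PYL12.

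Of the 18 light-regulated genes 2 had one. TT4, which encodes chalcone synthase, the first enzyme of the flavonoid pathway, had a region inside the gene with a −log10 p of 32.4 (chromosome 5, 4489659 to 4489994). HYH, a bZIP gene close to HY5, had one 1198 bp away with 24.2. Neither had a GBF3 mock peak. Other factors were placed elsewhere at both genes, 10 at TT4 and 7 at HYH.

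Lists of flavonoid enzymes, seed storage proteins and floral organ identity genes were added after the strongest regions had been seen. Of 8 flavonoid enzyme genes 3 had a region bound by GBF3 alone, all inside the gene. DFR, the dihydroflavonol reductase of anthocyanin synthesis, had a −log10 p of 88.0 under ABA and 69.4 under mock (chromosome 5, 17165268 to 17165710). TT4 is also on this list. BAN, the anthocyanidin reductase of the seed coat, had 25.3 under ABA alone. Elsewhere at DFR 6 other factors were placed, and none at BAN. Of 8 seed storage genes 2 had one, CRU3 and the albumin gene SESA1, which had 19.1 under ABA alone. None of the 12 floral organ identity genes had one, and 6 had a shared GBF3 region. Among gene families taken from the first letters of their symbols, with at least 50 members each, the share ran from 3.75% of the LCR genes (3 of 80) to 11.7% of the MYB genes (14 of 120) and 12.1% of the UGT glycosyltransferase genes (7 of 58). These shares were not tested. No region bound by GBF3 alone was placed at the gene of any of the 21 factors. Over all protein-coding genes the share was 6.61%, so an absence among these 21 genes, or among the 12 floral organ identity genes, says little.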

How the data were processed

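The data are ChIP-seq peak lists of 21 YPet-tagged factors in whole seedlings under ABA or mock. Per the submitters' processing notes, the tools were MACS2 2.0.10 and Bowtie 0.12.7, with TAIR10 as the build. The role of each is not stated. The authors deposited 1 narrowPeak list per factor and treatment, named as the optimal set at a −log10 p of 16, with replicates pooled. Columns used were the authors' fold enrichment (a ratio), the −log10 p as deposited by the authors, and the summit offset. What the fold is relative to is not stated. The q-value column as deposited holds -1. The lists give no counts, so depth and the precision it allows are unknown, and the Col-0 libraries were not analysed here by themselves.

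Peaks were merged at an overlap of 1 bp in Python 3.11.15 with pandas 2.3.3 and placed on genes by the summit of the strongest peak, with 1-based coordinates. Merging, calls and placement were tested on simulated data (bedtools 2.31.1). Genes came from an NCBI table of TAIR10.1, without strand or exons, and none of its coordinates is printed. As a check that table and peaks share positions, the share of shared GBF3 summits inside genes was lowest without a shift, 36.3%, against 40.7% and 40.4% at 100 bp to either side. All 107 gene list entries matched the table by locus and symbol.

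Wilson and Newcombe intervals (95%) were computed with SciPy 1.17.1, and tests over factors used 100000 sign flips (exact below 10 units). Such p-values reflect only how factors vary, and nothing in the labels tells whether replicates were separate cultures. Members and lists were chosen with earlier results of these data known. No genome sequence was used here, so the planned motif searches and promoter sequences were not analysed here.

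The rule named genes within 2000 bp of: the 15 strongest regions, the 5 strongest absent under mock, the 5 with most other mock lists, 5 just inside and 5 just outside the rule, the 5 genes with most regions, up to 4 per list, and the factors' own genes. Its promoter motif item could not be run, and some genes it names are not described. Alternatives were other merging, touching and distance rules, a −log10 p of 32, other factors left out, an equal minimum for both GBF3 lists, a 50% overlap, peak midpoints and other sets of factors.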

Additional observations from a re-analysis of the deposited data

How the results depend on the processing

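No result turned its direction under the alternatives tried. The number of regions bound by GBF3 alone stayed between 1667 and 2538 under 6 of 7 alternatives and was 980 with GBF3 ABA peaks of a −log10 p of at least 32. The share inside genes was 64.9% there, with a difference to shared regions of 28.4 points, and the share in the mock list was 82.1%, with a difference of −16.7 points. With that minimum in all lists the 4 values were 56.1%, 20.3 points, 53.4% and −36.9 points. Without NFYB2 among the other factors they were 59.95%, 23.6 points, 52.4% and −41.2 points. Without GBF2 the mock share was 56.7% and its difference −36.4 points. With no other factor within 500 bp the share inside genes was 59.2% and its difference 22.9 points. Peaks without merging gave a mock difference of −40.8 points, the mock list held to the ABA minimum gave 43.2% and −47.8 points, and peak midpoints gave a difference inside genes of 29.99 points. Regions with a −log10 p from 25 to 40, chosen after seeing the data, gave a mock share of 45.8% and a difference inside genes of 29.5 points. Those with peaks of 300 to 500 bp, also chosen afterwards, gave 66.5%, 22.2 points and a mock difference of −29.2 points. The share in the mock list thus depends on the strength of the GBF3 peaks kept. Over the other factors, the difference inside genes was 7.65 points with the 11 factors of at least 50 regions (permutation test, p = 0.00298) and 4.58 points over 9 families (exact permutation test, p = 0.254). The mock difference was −20.3 points over families (exact permutation test, p = 0.00391, the smallest it allows). All sign patterns in place of resamples, added after seeing the data, changed neither call over the factors. No paired analysis was possible because the replicates are pooled in each list, and for the same reason no replicate could be left out. Unknown depth limits what absence from a list shows.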
